A study of Mus musculus with 6 samples.

Results

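Aerocytes are one of the main kinds of capillary endothelial cell (EC) of the lung, and 7 genes that are used to recognise them were followed here in lung EC of infant and young adult mice. The genes were Car4, Apln, Tbx2, Prx, Emp2, Chst1 and Fibin, and every row of the deposited expression table that carried one of these symbols was taken. They filled 8 of 17241 transcript rows and stood for 7 of 12623 genes, since Prx had 2 rows. EC had been sorted from lungs of C57BL/6N mice, with no transgene or treatment named in the labels, and RNA-seq libraries from infant mice (inf, in the second postnatal week, n = 3) were set against libraries from young adult mice (yAdu, in the third month, n = 3). Values are RPKM, the reads of a transcript per kilobase of its length and per 1000000 mapped reads of the library, so levels can be compared between genes.

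The alveolar capillary net of the mouse lung is a mosaic. Aerocytes are large, thin, branched cells that lie against the alveolar epithelium and are specialised for gas exchange, and they arise around birth. General capillary cells lie between them, regulate vessel tone and act as progenitors in repair. The pair also divides a signal between its members, since aerocytes make the ligand apelin (Apln) and general capillary cells carry its receptor (Aplnr). The sort kept CD31+CD34+ cells without LYVE1 and PDPN and did not part the capillary types, so fewer aerocytes among the EC and less RNA of a gene per aerocyte cannot be told apart in these libraries, nor can a different share of aerocytes that passed the CD34 gate.

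The libraries differed in ways that touch the values below. Infant replicate 2 stood apart from the other infant libraries on the first principal component, which held 79.7% of the variance, so the fit was also run without it. The 12 pan-endothelial transcripts (Pecam1, Cdh5, Tie1 and others) summed to between 3122.1 and 5638.0 RPKM over the 6 libraries, which fits the label of the sorted cells. Transcripts of other cell types were present as well, and whether such cells were in the sort was not tested. Erythroid markers summed to 30427.2, 9655.9 and 79864.4 RPKM in infant libraries, against no more than 1350.7 RPKM in young adult libraries. Summed markers of fibroblasts reached 1248.6, 315.9 and 863.7 RPKM in the infant libraries, against no more than 20.6 RPKM in young adult libraries, while markers of alveolar type 2 (AT2) epithelial cells reached 3973.3, 5009.5 and 4820.4 RPKM in infant EC, against 1556.9, 3032.6 and 5207.6 in young adult libraries. The methods of the study name female mice, but the Y-linked transcript Ddx3y read 20.6, 16.5 and 21.9 RPKM in the infant libraries and 0 RPKM in each young adult library. A difference of sex makeup and a difference of age therefore cannot be told apart. Nothing in the labels ties the replicates to separate mice, so p-values measure the spread among these libraries only.

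The marker transcripts were all well detected, and their sum did not separate the ages. All 7 genes passed 1 RPKM in each of the 6 libraries, with values between 6.2 and 1467.6 RPKM. Their summed level was 1501.7, 2429.4 and 1444.9 RPKM in infant EC, against 1627.9, 1723.4 and 2432.1 in young adult EC, so that the groups overlapped. Most of this sum was Car4 and Emp2, so it says little of the less abundant markers. Within every library Car4 was the highest and Tbx2 the lowest of the 7. By mean level Car4 was followed by Emp2, Fibin, Prx, Apln, Chst1 and Tbx2. Each gene of this order lay above the next in 6 of 6 libraries, except Fibin and Prx, where this held in 3 of 6 libraries. These were the young adult libraries. In each infant library Prx lay above Fibin, though narrowly in infant replicate 3 (157.3 against 156 RPKM). The ranges of neighbours did not overlap between Car4 and Emp2, between Prx and Apln and between Chst1 and Tbx2. The ranges overlapped between Emp2 and Fibin and between Apln and Chst1, although the order was the same in each library.

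**Figure D1:**
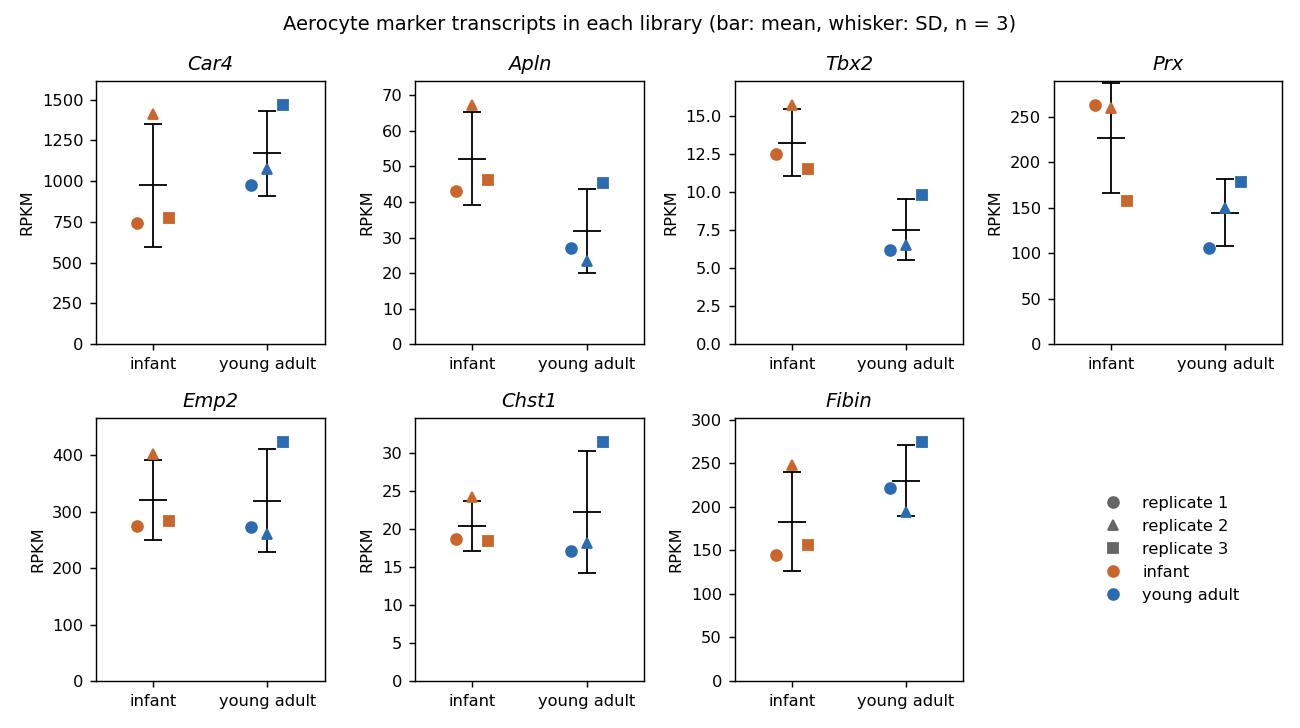
RPKM (vertical axes, each from 0) of the 7 aerocyte marker transcripts in 3 infant (orange) and 3 young adult (blue) libraries. Points are libraries, with symbols for the replicate number, and bars and whiskers are the mean and SD. The groups lie apart for Tbx2 alone, where the infant values of 11.5 to 15.7 RPKM lie above the young adult values of 6.2 to 9.8 RPKM.

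Sequence just upstream of the start site is shown for the 4 markers of the promoter table whose log2 fold changes lay farthest from 0, Car4 and Fibin with higher means in young adult EC and Apln and Prx with lower means. Each is the run of 250 bases before the start that the RefSeq promoter table holds for the gene in GRCm38.p6 (the same coordinates as mm10), read 5′ to 3′ on the strand of the gene. For Prx and Chst1 this start lies inside the gene span given below, downstream of its first base. Capitals mark letters that match an ETS core (CCGGAA), the motif of a transcription factor family that holds ERG and other endothelial regulators, or a GC box (GGGCGG), the motif bound by SP factors. Both were searched on both strands.
Car4, chr11:84957504-84957753, plus strand: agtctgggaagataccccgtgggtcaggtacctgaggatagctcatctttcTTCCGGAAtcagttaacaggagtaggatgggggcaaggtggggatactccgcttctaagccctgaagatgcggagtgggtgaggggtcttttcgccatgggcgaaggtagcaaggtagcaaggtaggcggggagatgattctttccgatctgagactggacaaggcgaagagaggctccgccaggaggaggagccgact
Fibin, chr2:110362994-110363243, minus strand: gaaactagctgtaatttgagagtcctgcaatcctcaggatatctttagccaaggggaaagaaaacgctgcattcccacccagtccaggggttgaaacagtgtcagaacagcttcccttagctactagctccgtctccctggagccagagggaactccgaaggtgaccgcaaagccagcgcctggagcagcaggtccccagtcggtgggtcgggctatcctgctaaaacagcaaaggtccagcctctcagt
Apln, chrX:48034854-48035103, minus strand: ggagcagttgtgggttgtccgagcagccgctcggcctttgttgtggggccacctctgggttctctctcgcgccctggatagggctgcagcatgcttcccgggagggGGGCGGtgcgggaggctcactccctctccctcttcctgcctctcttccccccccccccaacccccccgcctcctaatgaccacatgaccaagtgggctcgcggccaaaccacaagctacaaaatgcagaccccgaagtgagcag
Prx, chr7:27499074-27499323, plus strand: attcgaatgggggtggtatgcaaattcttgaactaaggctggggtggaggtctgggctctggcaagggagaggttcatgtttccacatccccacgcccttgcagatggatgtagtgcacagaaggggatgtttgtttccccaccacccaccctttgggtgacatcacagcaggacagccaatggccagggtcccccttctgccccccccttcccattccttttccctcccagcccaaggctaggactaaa

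The stretch upstream of Car4 held a palindrome in which 2 ETS matches overlap, 1 on each strand. An ETS match was found in the 300-base window (250 bases before to 50 after the start) of 1 of 6 markers in the promoter table (Car4), against 14.9% of all 32851 windows. GC boxes were found for 2 of 6 markers, Apln and Emp2, against 35.7% of all windows. A T-box core (GGTGTGA), the kind of site that TBX proteins bind, was found for 0 of 6 markers against 3.98% of all windows. A TATA motif (TATAAA) and a hypoxia response core (ACGTG) were found in the Car4 window alone among the markers, both outside the printed bases, against 13.6% and 19.6% of all windows. Base composition differed among the printed stretches, with 65.2% G and C and 12 CpG upstream of Apln and 56.4% G and C but only 2 CpG upstream of Prx. Car4 had 11 and Fibin 7 CpG, and the median of all windows was 52.4% G and C and 6 CpG over 300 bases. Tbx2 was not matched in the table. These are matches of letters and show no binding.

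The comparison of infant with young adult EC asked whether the markers change as lung EC pass from growth to rest. By the rule of the study's fold threshold (an adjusted p under 0.05 in limma with Benjamini-Hochberg adjustment, and a change over 1.75-fold on the log2(RPKM + 1) scale), 0 of 7 markers were called, against 11.4% of all 12458 genes tested (8.10% lower and 3.33% higher in young adult EC). At an adjusted p under 0.05 with no fold threshold, 1 of 7 markers passed (Tbx2, lower in young adult EC), against 25.5% of all genes. At an unadjusted p under 0.05, 3 of 7 passed (Apln, Tbx2 and Prx, all lower), against 40.4% of all genes. The groups did not overlap for 1 of 7 markers, against 43.4% of all genes. The median log2 fold change of the 7 markers, young adult minus infant, was -0.02, and that of all genes was -0.07. Without infant replicate 2 the median of the markers was 0.16 and that of all genes was again -0.07.

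Car4 encodes carbonic anhydrase 4, an enzyme anchored on the cell surface that turns bicarbonate into carbon dioxide at the capillary wall, and it is a marker by which aerocytes are often named. The gene lies on chromosome 11 from 84957754 to 84966054 (transcript NM_007607). Its level, for replicates 1 to 3 in order as for all genes here, was 743.7, 1411.1 and 772.7 RPKM in infant EC, against 976, 1072.6 and 1467.6 in young adult EC. It was the 18th most abundant of 12623 genes by mean level. Infant replicate 2 came near the highest young adult library, while the other infant libraries lay below all young adult libraries. The mean was 975.8 ± 377.2 RPKM in infant EC, against 1172.1 ± 260.5 in young adult EC (SD, n = 3 each). The log2 fold change was 0.31 ± 0.30 (SE), with a 95% interval of -0.39 to 1.0 and a limma adjusted p of 0.478. Without infant replicate 2 it was 0.61 with an adjusted p of 0.0506, whereas leaving out infant replicate 1 or 3 gave 0.14 or 0.17 and leaving out young adult replicate 3 gave 0.13. Under quantile normalization its sign turned, to -0.15.

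Apln encodes the secreted peptide apelin, a ligand with roles in vessel growth and tone, and lies on chromosome X from 48025146 to 48034853 (NM_013912). It read 43.2, 67.3 and 46.1 RPKM in infant EC, against 27, 23.3 and 45.3 in young adult EC. Young adult replicate 3 came between infant replicates 1 and 3, and the other young adult libraries were below all infant libraries. The mean went from 52.2 ± 13.2 to 31.9 ± 11.8 RPKM, which is 0.61 times the infant mean. The log2 fold change was -0.72 ± 0.26 (95% interval -1.33 to -0.12), and its limma adjusted p of 0.0783 did not pass. Without young adult replicate 3 the log2 fold change was -1.0 with an adjusted p of 0.0286, and the gene was called. With RPKM rescaled without the globin genes it was -0.83 with a limma adjusted p of 0.0298, and Apln was again called. Apln is X-linked, and the Y-linked transcripts of the infant libraries move with this comparison. Their part in the result was not tested.

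Tbx2 encodes a T-box transcription factor, a repressor that acts in lung development, and lies on chromosome 11 from 85832615 to 85841948 (NM_009324). It read 12.5, 15.7 and 11.5 RPKM in infant EC, against 6.2, 6.5 and 9.8 in young adult EC. Each infant library was above each young adult library, with infant replicate 3 and young adult replicate 3 as the nearest values. Tbx2 fell from 13.2 ± 2.19 to 7.5 ± 2 RPKM. Its log2 fold change was -0.76 ± 0.18 (95% interval -1.18 to -0.34) with a limma adjusted p of 0.022, and was below the fold threshold of 0.81 on the log2 scale. Without infant replicate 2 the value was -0.64 with an adjusted p of 0.0305, but the adjusted p no longer passed without infant replicate 1 (0.0625) or without young adult replicate 1 (0.0817) or 2 (0.0896). Without infant replicate 3 it was -0.85 and without young adult replicate 3 it was -0.94, and in both fits the gene was called. Tbx2 was also called with RPKM rescaled without the globin genes (-0.86, limma adjusted p = 0.00825). The same held with a pseudocount of 0.1 (-0.83, limma adjusted p = 0.0204). Lung fibroblasts also express Tbx2, and fibroblast markers were higher in infant libraries. Infant replicate 2, which had the lowest fibroblast sum of the infant libraries (315.9 RPKM), had the highest Tbx2 value (15.7 RPKM), as it had for 6 of 7 markers. The part of fibroblasts in the Tbx2 difference was not tested.

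Prx encodes periaxin, a scaffold protein best known from the myelin of Schwann cells, and lies on chromosome 7 from 27499305 to 27520041. Transcript NM_198048 read 263.2, 260.4 and 157.3 RPKM in infant EC, against 106.1, 149.4 and 178.9 in young adult libraries. Infant replicate 3 lay within the young adult range, whereas the other infant libraries were above it. The mean went from 227.0 ± 60.3 to 144.8 ± 36.6 RPKM, with a log2 fold change of -0.64 ± 0.26 (95% interval -1.24 to -0.04) and a limma adjusted p of 0.105, which did not pass. The second transcript, NM_019412, read 235.7, 233.0 and 140.7 RPKM in infant EC, against 94.8, 133.6 and 159.7 in young adult libraries. The ratio of the rows was 1.12 in every library, so they did not resolve the isoforms. Of 7 Schwann cell markers, 3 were tested, and their sum lay between 13.7 and 20 RPKM in all 6 libraries, with all infant libraries below all young adult libraries.

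Emp2 encodes a membrane protein with 4 spans that organises integrins and caveolae, and it is made by alveolar type 1 (AT1) epithelial cells as well as by EC. It lies on chromosome 16 from 10281749 to 10313968 (NM_007929). The libraries gave 275.5, 402.5 and 282.9 RPKM in infant EC, against 273.6, 259.8 and 424.2 in young adult EC. In each group 1 library (infant replicate 2 and young adult replicate 3) stood well above the others, and the groups overlapped. The means of 320.3 ± 71.3 and 319.2 ± 91.2 RPKM gave a log2 fold change of -0.02 ± 0.24, and the 95% interval ran from 0.675-fold to 1.44-fold (limma adjusted p = 0.963). AT1 markers, which summed to 153.8, 195.3 and 202.2 RPKM in infant EC, against 63.9, 104.6 and 126.9 in young adult libraries, were lower in young adult EC for 7 of 8 genes. The sort removed cells with PDPN, which AT1 cells carry. The part of AT1 transcripts in the level of Emp2 was not tested.

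Chst1 encodes a Golgi enzyme that adds sulfate to galactose of keratan sulfate and related sugar chains, and lies on chromosome 2 from 92599632 to 92615252 (NM_023850). Its values were 18.7, 24.2 and 18.4 RPKM in infant EC, against 17.1, 18.1 and 31.5 in young adult EC. The groups overlapped, and young adult replicate 3 was the highest of the 6 libraries. The means were 20.4 ± 3.27 and 22.2 ± 8.04 RPKM. The log2 fold change was 0.07 ± 0.23 (95% interval -0.45 to 0.60, limma adjusted p = 0.835).

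Fibin encodes a small secreted protein first known from fin bud development, and lies on the same chromosome from 110360925 to 110362993 (NM_026271), 17.7 Mb from Chst1. It read 144.9, 248.2 and 156 RPKM in infant EC, against 221.9, 193.7 and 274.8 in young adult libraries. As for Car4, infant replicate 2 lay within the young adult range and the other infant libraries lay below it. The means were 183.0 ± 56.7 and 230.1 ± 41.2 RPKM, with a log2 fold change of 0.36 ± 0.23 (95% interval -0.18 to 0.89, limma adjusted p = 0.282). Without infant replicate 2 the log2 fold change was 0.60 with an adjusted p of 0.0237, still under the fold threshold, whereas leaving out infant replicate 1 gave 0.21 and leaving out young adult replicate 3 gave 0.22 (adjusted p of 0.592 and 0.573).

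**Figure D2:**
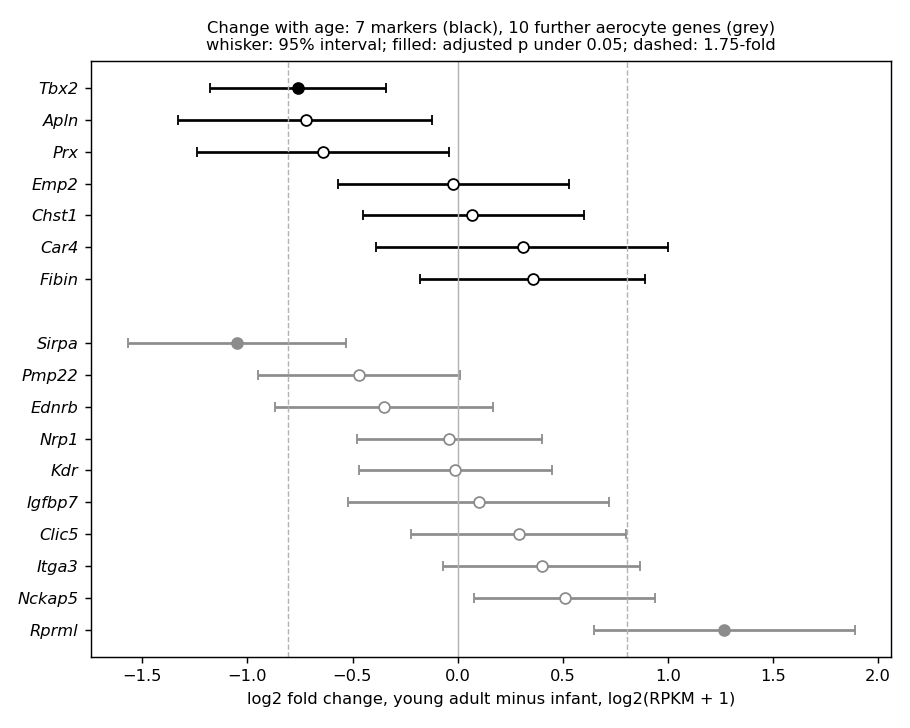
Log2 fold change, young adult minus infant on the log2(RPKM + 1) scale (horizontal axis), of the 7 markers (black) and 10 further aerocyte genes (grey), with 95% intervals of limma as whiskers. Filled points have an adjusted p under 0.05 and dashed lines mark 1.75-fold. Among the markers the values run from -0.76 (Tbx2) to 0.36 (Fibin), and none lies past the dashed lines.

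The lower means of Apln, Tbx2 and Prx were also read within each library, as the log2 ratio of RPKM + 1 to that of other transcripts, which a single scaling factor per library leaves nearly unchanged. Relative to the mean of the 12 endothelial genes, the ratios of these 3 markers did not overlap between the groups and were lower in young adult EC. This held for 64.3% of all genes tested, or 67.4% when both directions were counted. The ratio differed by -1.23 for Apln, by -1.26 for Tbx2 and by -1.14 for Prx. For the other 4 markers the groups overlapped, with differences between -0.52 (Emp2) and -0.15 (Fibin). In an exact two-sided permutation test with 3 against 3 libraries the smallest possible p is 0.1, which the 3 markers reached (0.233 after adjustment over the 7 markers). The endothelial genes themselves read higher in young adult EC for 11 of 12 genes, with a median log2 fold change of 0.52.

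Set against Car4 within the same library, the markers parted in the same way. The log2 ratio of Tbx2 to Car4 was -5.79, -6.40 and -5.95 in infant EC, against -7.08, -7.16 and -7.09 in young adult replicates 1 to 3. Among young adult libraries the SD of this ratio was 0.04 and that of the log2 level of Tbx2 was 0.32. Among infant libraries the SD of the ratio was 0.32 and that of the level 0.22. The ratio of Apln to Car4 was -4.07, -4.37 and -4.04 in infant EC, against -5.12, -5.47 and -4.99 in young adult libraries. The ratio of Prx to Car4 was -1.50, -2.43 and -2.29 in infant EC, against -3.19, -2.84 and -3.03 in young adult libraries. The groups did not overlap for these 3 of 6 markers, all lower in young adult EC, with differences of -1.03 (Apln), -1.06 (Tbx2) and -0.95 (Prx), against 12.0% of all genes that were lower relative to Car4 with no overlap (exact permutation p = 0.1 each, the smallest possible, and 0.2 after adjustment over 6 markers). The ratio of Fibin to Car4 overlapped between the groups, with -2.39 ± 0.10 in infant EC, against -2.34 ± 0.18 in young adult EC. Emp2 and Chst1 differed by -0.33 and -0.23, with exact permutation p of 0.2 and 0.3. Under quantile normalization, which changes ratios within a library, the log2 fold changes were -0.15 for Car4, -0.77 for Apln, -0.69 for Tbx2 and -0.79 for Prx, so that these markers lay closer to Car4. Car4 as a reference was chosen after the values had been seen, so the counts and p-values of this comparison are a description only. A ratio to Car4 also carries the spread of Car4 itself. Its log2 level had an SD of 0.52 among infant and 0.31 among young adult libraries.

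**Figure D3:**
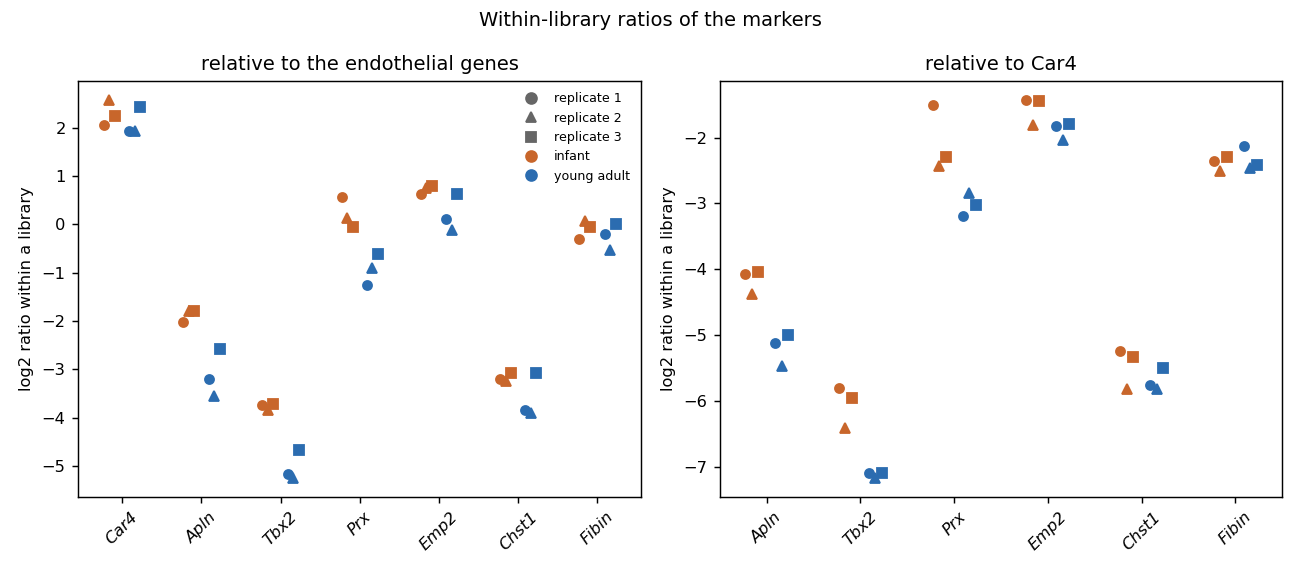
Log2 ratio within each library (vertical axes) of the markers to the mean of 12 endothelial genes (left) and of the other 6 markers to Car4 (right), in infant (orange) and young adult (blue) libraries, with symbols for the replicate number. In both panels the infant and young adult points of Apln, Tbx2 and Prx lie apart, and those of Fibin overlap.

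Among the libraries of one age the markers moved together. On the log2(RPKM + 1) scale all 7 markers were above the mean of their group in infant replicate 2, by 0.24 to 0.60, and all 7 in young adult replicate 3, by 0.27 to 0.55. Both held for 33.8% of all genes. Infant replicate 2 held the highest infant value for 6 of 7 markers (37.3% of all genes), with Prx as the exception, and young adult replicate 3 held the highest young adult value for 7 of 7 (43.5% of all genes). The highest library exceeded the lowest of its group by 1.32 (Chst1) to 1.9 times (Car4) in infant and by 1.42 (Fibin) to 1.94 times (Apln) in young adult EC. For Car4, Prx, Emp2, Chst1 and Fibin the gap within each group was larger than the ratio of the group means. For Tbx2 it was smaller in both groups, and for Apln it was smaller among the infant libraries. A list of 10 further aerocyte genes showed the same order, with 10 of 10 above the group mean in infant replicate 2 and 9 of 10 in young adult replicate 3.

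General capillary genes were above the mean of their group in infant replicate 2 for 5 of 8 genes. In young adult replicate 3, 8 of 8 were below the mean of their group, by 0.01 to 0.39, against 35.9% of all genes, and 6 of 8 had their lowest young adult value there (20.7% of all genes). The 12 endothelial genes were above the group mean in 12 of 12 cases in infant replicate 2 and in 7 of 12 cases in young adult replicate 3. Of the other cell types, all 6 AT2 markers were above the group mean in infant replicate 2 and in young adult replicate 3. Both held for 33.8% of all genes. In infant replicate 2 this held for 2 of 8 AT1, 2 of 8 fibroblast, 0 of 8 mural and 1 of 6 leukocyte markers, and in young adult replicate 3 for 7 of 8, 8 of 8, 8 of 8 and 6 of 6. Young adult replicate 3 also had the highest sum of leukocyte markers among young adult libraries (538.3 RPKM, against 138.1 and 298.8). Most of this sum was Lyz2, with 134.3, 285.6 and 515.5 RPKM in young adult replicates 1 to 3. The leukocyte gene Ptprc read 0.2, 1 and 1.8 RPKM there. The part of other cell types in the order of the libraries was not tested.

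**Figure D4:**
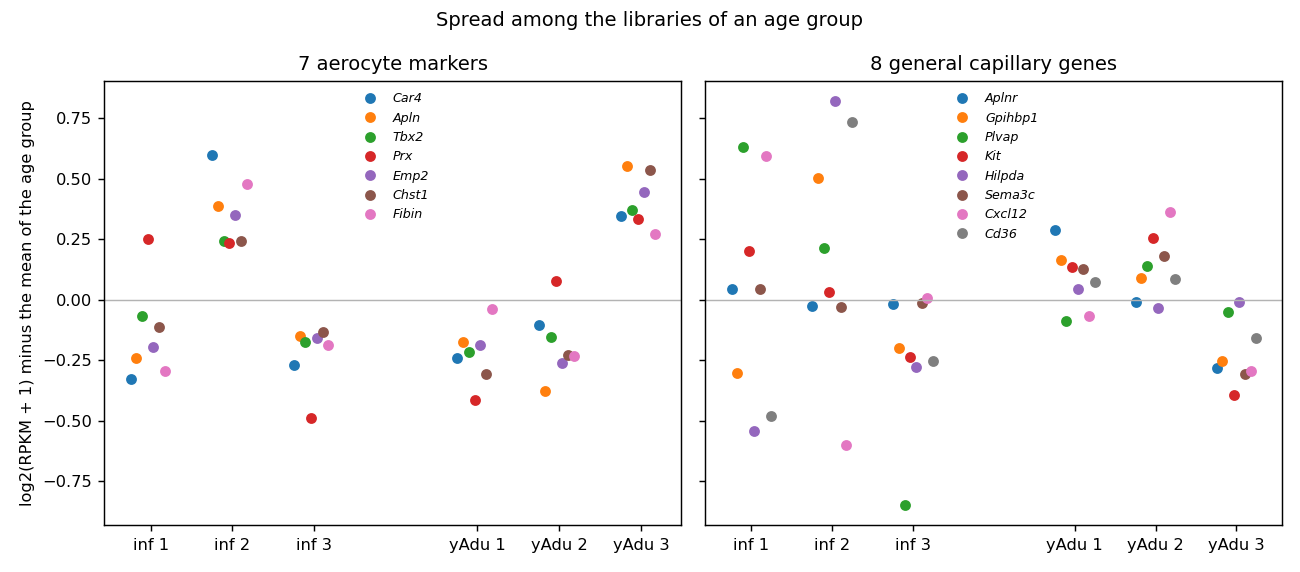
Log2(RPKM + 1) minus the mean of the age group (vertical axis) for the 7 aerocyte markers (left) and 8 general capillary genes (right) in each infant (inf) and young adult (yAdu) library. Points are genes. All 7 markers lie above 0 in infant replicate 2 and young adult replicate 3, and all 8 general capillary genes lie below 0 in young adult replicate 3.

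Over the 6 libraries some pairs of markers had a like pattern, given as a description. Pearson's r on the log2(RPKM + 1) scale was 0.96 between Apln and Tbx2, 0.95 between Car4 and Fibin and 0.95 between Emp2 and Chst1. It was 0.87 between Tbx2 and Prx and 0.82 between Car4 and Emp2, so the markers did not part into separate pairs. It was 0.06 between Car4 and Tbx2 and lowest, at -0.13, between Prx and Fibin. The points share library, scaling and age group. Among the genes with a mean of at least 5 RPKM and a log2 fold change of at least 0.5 in either direction, the most like Car4 were Ccdc68 (r = 0.968) and Grina (0.931), and Ccdc68 was also the gene most like Fibin (0.984), ahead of Rnf130 (0.967). Apln was followed most closely by Orai2 (0.985) and Ctdspl (0.974), and Tbx2 by Ctdspl (0.996) and Tns3 (0.993). Prx was nearest to Lrrc16a (0.977) and Lrch4 (0.969). An r over 0.9 was reached by 104 of 1341 genes with Tbx2 and by 6 of 1342 with Car4. The fold change filter keeps genes without a difference between the ages out of the comparison. This limits the likeness found for Emp2, Chst1, Car4 and Fibin, whose own changes lay under it. The counts for Tbx2 and Car4 therefore depend on the filter. The nearest were Ccdc68 (0.711) and Apln (0.707) for Emp2 and Tekt5 (0.792) and Lyz1 (0.706) for Chst1.

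Of the further aerocyte genes 1 was called higher, 1 was called lower and 8 of 10 were not called, where 11.4% of all genes were called. Their median log2 fold change was 0.04, with 0.26 without infant replicate 2 and -0.08 under quantile normalization. Rprml, a reprimo-like gene, read 1.6, 2.3 and 0.9 RPKM in infant EC, against 4, 4.2 and 7.8 in young adult EC, and rose by 1.27 ± 0.27 on the log2 scale (limma adjusted p = 0.0154). Sirpa, which encodes a receptor of the self signal CD47, fell from 45.4 ± 8.73 to 21.8 ± 7.05 RPKM (log2 fold change -1.05 ± 0.22, limma adjusted p = 0.0156). Rprml was not called without infant replicate 1, and Sirpa was not called without young adult replicate 1 or 2. The endothelin receptor gene Ednrb (-0.35, limma adjusted p = 0.282) and the VEGF receptor gene Kdr (-0.01, limma adjusted p = 0.98), which aerocytes carry at a high level, did not pass.

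General capillary genes had a log2 fold change above 0 for 8 of 8 genes (0.05 for Cxcl12, the lowest), with 3 called higher (3.33% of all genes were called higher) and a median log2 fold change of 0.82. Gpihbp1, which anchors lipoprotein lipase to the capillary wall, rose by 1.17 ± 0.24 on the log2 scale (limma adjusted p = 0.0137). Kit, a receptor tyrosine kinase, rose by 1.11 ± 0.20 (adjusted p = 0.00864) and the fatty acid transporter Cd36 by 1.08 ± 0.31 (adjusted p = 0.0402) in the same limma fit. Gpihbp1 was not called in 4 of the 6 fits that left out 1 library, namely those without infant replicate 1 or 3 and without young adult replicate 1 or 2, and Cd36 was called in only 1 of 6, the one without infant replicate 2, and not under quantile normalization (0.75). Relative to the mean of the 8 general capillary genes, the ratios of Apln, Tbx2 and Prx were lower in young adult EC with no overlap, as were those of 80.8% of all genes (82.3% in either direction). The ratio of Car4 overlapped, with a difference of -0.44 (exact permutation p = 0.3).

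Of the apelin pathway, 9 of 10 listed genes were tested, 1 was called lower and none higher (11.4% of all genes were called). The receptor gene Aplnr read 59.6, 56.8 and 57.1 RPKM in infant EC, against 86.9, 70.5 and 58.2 in young adult libraries, a log2 fold change of 0.29 ± 0.15 (limma adjusted p = 0.183). Among young adult libraries, replicate 3 had the highest value of the ligand Apln and the lowest value of its receptor. Gnai1, which encodes an inhibitory G protein subunit of the kind that carries the apelin signal, fell from 2.93 ± 0.462 to 1.1 ± 0.265 RPKM (log2 fold change -0.91 ± 0.15, limma adjusted p = 0.00644), but was not called under quantile normalization (-0.64). The arrestin genes Arrb1 (0.54, adjusted p = 0.00927) and Arrb2 (-0.40, adjusted p = 0.0421) passed the limma test in opposite directions below the fold threshold.

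Among the other carbonic anhydrases, 8 of 15 listed genes were tested, with 1 called higher and 1 called lower (3.33% and 8.10% of all genes). Car14, which encodes a membrane-bound enzyme that, like Car4, acts outside the cell, read 14, 12.6 and 13.8 RPKM in infant EC, against 62.9, 61.8 and 47.3 in young adult EC. The groups lay far apart and Car14 rose to 4.26 times the infant mean, by 2.0 ± 0.13 on the log2 scale (limma adjusted p = 0.000362), and it was called in each of the 6 fits that left out 1 library. The cytosolic enzyme gene Car2 read 357.2, 163.4 and 397.9 RPKM in infant EC, against 112.2, 123 and 100.4 in young adult libraries, and fell by 1.35 on the log2 scale (SE 0.31, limma adjusted p = 0.0205). Car2 is abundant in red blood cells, and erythroid markers, which summed to 30427.2, 9655.9 and 79864.4 RPKM in infant and to no more than 1350.7 RPKM in young adult libraries, ranked the infant libraries in the same order as Car2. The sort removed cells with the erythroid marker LY76. The part of erythroid transcripts in the fall of Car2 was not tested, and Car2 was called in only 1 of the 6 fits that left out 1 library, the one without infant replicate 2. Of genes that work beside carbonic anhydrases in acid-base transport, 5 of 7 were tested. Slc4a1, the anion exchanger of red blood cells, fell by 2.16 on the log2 scale (limma adjusted p = 0.00339), and the water channel gene Aqp1 rose by 0.79 (adjusted p = 0.0256) without passing the fold threshold.

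Of the T-box family, 4 of 15 other listed genes were tested, and 2 were called lower (8.10% of all genes). Tbx3, the closest relative of Tbx2, was the more abundant of the pair in each library, with 74.8, 87.1 and 56.6 RPKM in infant EC, against 50.8, 58.4 and 64.4 in young adult EC. Its groups overlapped (log2 fold change -0.31 ± 0.17, limma adjusted p = 0.211). Tbx4 and Tbx5, factors of the lung mesenchyme, fell by 2.43 (SE 0.46, adjusted p = 0.011) and 2.82 (SE 0.49, adjusted p = 0.00799) on the log2 scale in the limma fit, and Tbx4 was not called without young adult replicate 1. Tbx5 read 15, 3 and 13.6 RPKM in infant libraries, with the lowest value in infant replicate 2, as did 6 of 8 fibroblast markers (Dcn and Lum were highest there). The part of fibroblasts in these changes was not tested.

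Relatives and partners of Prx, Emp2 and Chst1 gave 2 calls, both lower in young adult EC. Of genes for partners of periaxin, 5 of 7 were tested and 0 were called (11.4% of all genes), while 4 passed an adjusted p under 0.05 in limma (25.5% of all genes), namely Dag1 (log2 fold change -0.53), Dmd (-0.75) and Ezr (-0.66), which read lower, and Utrn (0.51), which read higher. Drp2, the closest partner of periaxin in Schwann cells, was not analysed here. In the family of Emp2, 4 of 5 listed genes were tested and 1 was called lower (Perp, at or below 2.1 RPKM in all libraries, and not called in 4 of the 6 fits that left out 1 library, with the replicate block or under quantile normalization). Emp1 fell from 93.6 ± 5.75 to 63.5 ± 4.88 RPKM (log2 fold change -0.55 ± 0.11, limma adjusted p = 0.0116) below the fold threshold, and Pmp22, which is also a gene of the further aerocyte list, gave -0.47 (adjusted p = 0.128). Among carbohydrate sulfotransferases 6 of 13 listed genes were tested and Chst2, an enzyme that sulfates N-acetylglucosamine, was called. It read 10.9, 9.7 and 11.4 RPKM in infant EC, against 4, 3.3 and 5.5 in young adult EC and fell by 1.17 on the log2 scale (SE 0.16, limma adjusted p = 0.00339), and it was called in each of the 6 fits that left out 1 library. The difference between the changes of Chst1 and Chst2 was not tested.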

How the data were processed

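Lung EC of C57BL/6N mice were analysed in 6 RNA-seq libraries, 3 infant and 3 young adult, with group and replicate number taken from the titles. Per the study's methods, collagenase-digested lungs were sorted for living CD31+CD34+ cells without PTPRC, LYVE1, PDPN and LY76. RNA was amplified with the SMARTer Ultra Low kit, sequenced in paired ends, aligned to mm10 with STAR and counted on RefSeq. The authors tested counts with DESeq2. The STAR version and the program behind the RPKM are not given in the sources used here. The deposited RPKM values, 1 row per transcript and rounded to 1 decimal, hold no read depth, so no counting error is given. There were 0 further columns of values.

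Symbols turned into dates (24 rows) were restored from the RefSeq identifier, and the row with the highest mean was kept per gene (2842 genes had several rows). limma 3.58.1 (R 4.3.3) was run on log2(RPKM + 1) with an intensity trend and age as the only term, over the 12458 genes with at least 1 RPKM in at least 1 library, two-sided, with Benjamini-Hochberg adjustment. The study's count test was not possible on RPKM. Its filter and 1.75-fold threshold were kept. The pseudocount of 1 understates changes of low genes. Ratios within libraries were compared by exact two-sided permutation. The scripts were tested on simulated data.

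The text names the 7 markers, the 2 genes most like each and, from each list of related genes, called genes, up to 4 with the largest change and direct partners. The markers and lists were chosen with earlier results of these data known, so lists are described by counts and medians without a test. Alternatives were other pseudocounts (0.1 and 5), filters, scalings, eBayes settings, thresholds, transcript rows, a replicate block and leaving out each library. Car4 and the general capillary genes as references, and leaving out libraries other than infant replicate 2 for the lists, were added after seeing the data. Motifs and sequences are from RefSeq (GRCm38.p6), where 6 of 7 markers matched.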

Additional observations from a re-analysis of the deposited data

How the results depend on the processing

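Of 140 values of single markers under alternatives, 125 kept their direction and were again not called, 9 turned direction and 6 became called. Among the 125, the adjusted p of Tbx2 rose above 0.05 without infant replicate 1, without young adult replicate 1 or 2 and with a replicate block, and that of Fibin fell below it without infant replicate 2. The number of markers called was 0 and rose to 1 (Tbx2) with a pseudocount of 0.1 and by adjusted p only. It rose to 2 (Apln and Tbx2) with RPKM rescaled without the globin genes. Leaving out 1 library gave 0 to 2, with 1 (Tbx2) without infant replicate 3 and 2 (Apln and Tbx2) without young adult replicate 3. Over all genes the count of 1424 became 578 with a pseudocount of 5, 663 with a mean of at least 5 RPKM, 176 in a test against the fold threshold itself, 3176 by adjusted p only and 843 to 1874 without 1 library. Signs turned for 3 markers. Car4 went to -0.15 under quantile normalization. Emp2 went to 0.07 with equal sums, 0.05 with median ratios and 0.03 with array weights, and ran from -0.24 to 0.16 without 1 library. Chst1 went to -0.03 without globin genes and ran from -0.19 to 0.23 without 1 library. The adjusted p of Tbx2 ranged from 0.00825 to 0.0896 over the alternatives. The count of 3 markers whose ratio to endothelial genes did not overlap became 3 to 6 without 1 library, with 6 without young adult replicate 3. Of 57 genes in the lists of related genes, 13 were called (22.8%, against 11.4% of all genes), and 7 to 15 without 1 library, the lowest (7) when young adult replicate 1 was left out and 8 when its replicate 2 was. These lists were chosen with earlier results of these data known, so the shares are a description only. Quantile normalization shifted the all-gene median log2 change by 0.12 and gave 46.5% instead of 29.1% of calls as higher, and rescaling without globin genes moved it by -0.09 and gave 22.5%. Libraries with the same replicate number did not deviate together over all genes (r of 0.0282, -0.11 and -0.0208). Pairs with different numbers gave r from -0.122 to 0.111. With 3 libraries a group this cannot show whether the numbers pair the samples, and the labels do not say. With a replicate block 0 markers and 1371 genes were called, and the adjusted p of Tbx2 was 0.0502. Depth per library is unknown, and 3 libraries a group leave wide intervals, such as -0.39 to 1.0 on the log2 scale for Car4.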

Other observations

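Car4 and Tbx2 lie 867 kb apart on chromosome 11, and neither was called (log2 fold changes of 0.31 and -0.76, with -0.15 and -0.69 under quantile normalization). Between them 5 genes were tested and 0 were called, with 4 lower and 1 higher in young adult EC and a median log2 fold change of -0.38. Of these, Bcas3 (limma adjusted p = 0.0161) and Appbp2 (adjusted p = 0.0218) passed the adjusted p without the fold threshold.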
